A study of Anolis carolinensis with 2 samples.

Results

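Gene models of the green anole, Anolis carolinensis, that lie in a single exon and have the coding size of an olfactory receptor were followed in whole embryos at 38 and at 28 somite pairs. A model belonged here when it was the only gene and the only transcript of its locus, when its genomic span equalled its transcript length, and when that length was 900 to 1000 bases and divisible by 3. Models on linkage groups and on contig AAWZ02037236 were not considered. This gave 136 of 21085 gene models. The choice used annotation only, not expression. The files give identifiers without names or sequences, and no identifier (0 of 21085) was found in the table of RefSeq gene names used here. Whether a given model encodes an olfactory receptor could therefore not be checked, and the 136 are called intronless models below.

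Somites are segments of embryonic mesoderm laid down in pairs from head to tail, so that counting them gives the stage. The embryos were taken 0 to 1 days after laying, with sex, strain and genotype not given in the labels. The series equates 38 somite pairs with a mouse embryo of 10.5 days and 28 with one of 9.5 days. Each stage was 1 embryo and 1 library, so embryo, library and stage cannot be told apart, no value has a replicate error and no p-value is given. The RNA came from the whole embryo, so fewer cells of a type and less RNA per cell cannot be told apart either.

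Olfactory receptors are G protein-coupled receptors that bind odorants on the cilia of sensory neurons. In vertebrates their coding region typically lies in a single exon, and the genes sit in tandem arrays that grow by local duplication. Each mature olfactory neuron expresses very few of them, and the nasal epithelium arises from placodes of the embryonic head. Other intronless genes, among them other receptors of this superfamily, have a similar size, so size and exon structure do not define the family.

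Within the annotation, single-exon models were frequent at this size and often lay near each other. Those of 900 to 999 bases numbered 147, against 74 at 800 to 899 bases and 95 at 1000 to 1099 bases. Of the 147, 136 had a length divisible by 3. The commonest length was 936 bases, equal to 312 codons, in 19 models, and 69 of the 136 (50.7%) had 930 to 960 bases. At the edges of the window, the shortest model had 900 bases, with 2.55 FPKM at 38 somite pairs and 1.52 at 28, and the longest had 999 bases, with 74.7 and 75.8 FPKM. FPKM relates the fragments of a model to its effective length in kilobases and to the mapped fragments of the library. Just outside, the model of 897 bases was listed at 0 in both libraries. Of the models of 1002 bases, one had 0 and 1.56 FPKM and the other 6.71 and 5.04, at 38 and at 28 somite pairs.

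Neighbouring models were joined when at most 50 kb lay between them. In this way 55 of the 136 models fell into 7 clusters, and 81 stood alone. Among single-exon models with a length divisible by 3, those in clusters made up 40.4% at 900 to 999 bases. The shares were 3.08% at 800 to 899 bases and 10.3% at 1000 to 1099, where the largest clusters held 2 and 3 models. The largest cluster had 31 models on scaffold GL343253.1 (551097 to 1105037, AnoCar2.0), with a median gap of 12.0 kb. The next had 8 models on chromosome 1 (92320553 to 92505533) and 7 on scaffold GL343220.1 (922414 to 983778). A further cluster held 3 models and the other 3 clusters held 2 each. Of the models alone, 46 lay on scaffolds or contigs, 21 started within 50 kb of the first base of their sequence and 9 were the only gene model there, so some may have neighbours that the assembly does not join to them.

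More of the intronless models were listed above 0 at 38 than at 28 somite pairs, and most of this excess lay in the clusters. In all, 67 of 136 (49.3%) were listed above 0 at 38 and 48 (35.3%) at 28. Over all genes the shares were 53.7% and 53.0%. In both libraries 39 models were listed, against 48.6% of all genes, and 60 were listed in neither, against 8856 of the 21085 genes. At 38 somite pairs only, 28 were listed, and at 28 only, 9. Over all genes these shares were 5.02% and 4.34%. In clusters, 34 of 55 models (61.8%) were listed at 38 and 18 (32.7%) at 28, with 20 at 38 only and 4 at 28 only. Among models alone, 33 of 81 (40.7%) were listed at 38 and 30 (37.0%) at 28, with 8 at 38 only and 5 at 28 only.

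The same shares in similar models are given beside these. Models of 900 to 1000 bases with introns but a span of at most 3000 bases, 86 in all, were listed in 39 cases (45.3%) at 38 somite pairs and in 27 (31.4%) at 28. Of these, 16 were listed at 38 only and 4 at 28 only. Spliced models of that length with a longer span were listed in 404 of 663 cases (60.9%) at 38 and 413 (62.3%) at 28. Single-exon models from 300 to under 900 bases stood at 38.5% and 34.1% of 501, and those over 1000 and up to 2000 bases at 52.9% and 48.3% of 350. Listed models were thus more numerous at 38 in every group given except spliced models of the same length with a longer span. The shares lay furthest apart in the clusters. Some compact models with introns lie in or beside these clusters, so the 2 groups are not separate in position. These differences between kinds of models were not tested, since models of 1 library are not replicates.

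**Figure D1:**
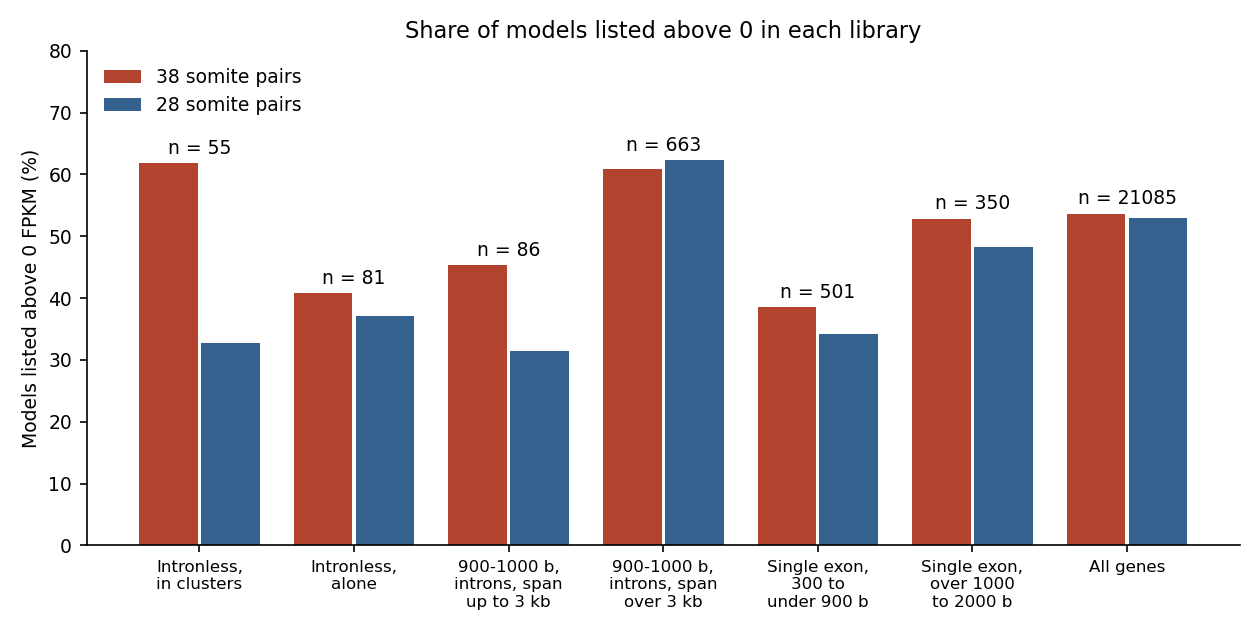
Bars give the percentage of gene models listed above 0 FPKM at 38 and at 28 somite pairs, for the intronless models in clusters and alone and for 5 other groups of models (b, bases), with the number of models above each pair. Intronless models in clusters had 61.8% at 38 and 32.7% at 28, while the bars of all genes were 53.7% and 53.0%.

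The level behind most of these listings was low. Fragment numbers, recovered from the FPKM values, had a median of 21 at 38 somite pairs and 25 at 28 among the listed models. Of the 67 models listed at 38, 27 had fewer than 20 fragments, as did 22 of the 48 listed at 28. Across the annotation, listed values below 10 fragments were rare, since only 121 of 9871 listed loci at 38 and 123 of 9739 at 28 had one. A listed 0 can therefore hide up to 9 fragments. The libraries held 12908612 mapped fragments at 38 somite pairs and 13859394 at 28, so the library with more listed models was the shallower. Counting only models with at least 20 fragments gave 40 at 38 and 26 at 28, of which 17 and 6 lay in clusters. Of 18100 genes that were the only gene and transcript of their locus, 8234 reached 20 fragments at 38 and 8250 at 28. The numbers were 155 and 125 of 350 longer single-exon models, and 140 and 133 of 501 shorter ones. They were 21 and 18 of 86 compact models with introns, and 328 and 341 of 663 spliced models with a longer span. Counting only intronless models with a lower deposited bound above 0 gave 18 at 38 and 18 at 28, with no excess at 38. The share of all genes under this bound was not computed. The median FPKM of listed intronless models was 2.55 at 38 and 2.55 at 28, below the 6.28 and 7.41 of all listed genes.

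At 2-fold or more on the log2(FPKM + 1) scale, with an FPKM of at least 1 in either library, 31 of the 136 models were past the fold towards 38 somite pairs and 9 towards 28. The filter passed 73 of the 136. Among all genes that passed, 8.58% were higher at 38 and 9.20% at 28. For the intronless models that passed, the shares were 42.5% and 12.3%. Compact models with introns stood close to this, at 40% and 10%. Shorter single-exon models had 22.7% and 13.3%, and longer ones 20.9% and 4.65%. Spliced models with a longer span had 11.2% and 11.9%. The tilt towards 38 was thus not particular to the intronless models. Of the 31, 27 were listed at 0 at 28, and of the 9, 7 were listed at 0 at 38. Most of these calls thus rest on a 0 and not on a measured ratio. From a 0 in 1 library, 1 FPKM in the other meets the filter and the fold together, so such calls restate the listing. At 38, 10 fragments make 1.02 to 1.39 FPKM in clustered models, and 0.701 to 1.39 (median 0.952) in models alone. With 9 fragments put in place of each 0, 8 models were higher at 38 and 2 at 28. Clusters held 23 of the 31, with 20 of these at 0 at 28, and 4 of the 9, with all 4 at 0 at 38.

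As deposited, the fragments summed over each class were higher at 38 somite pairs in the clusters and lower among models alone. The 55 models in clusters summed to 871 fragments at 38, against 371 at 28. Divided by the mapped totals, this made a ratio of 2.52 (exact 95% interval 2.23 to 2.86, counting error only). The 81 models alone had 6007 fragments at 38 and 7631 at 28, a ratio of 0.845 (0.817 to 0.874). The 3 largest of them held 69.3% of these fragments at 38 and 71.8% at 28, so this ratio mostly reflects a few models. Over the 25 models alone that were listed in both libraries, the median ratio was 0.988, with 12 above 1 and 13 below. Spliced models of 900 to 1000 bases had a ratio of 0.880 (0.874 to 0.885), and compact models with introns one of 0.822 (0.799 to 0.846). Shorter single-exon models had one of 1.02 (1.01 to 1.04), and longer ones one of 0.944 (0.927 to 0.961). Over all 136 models the ratio was 0.923 (0.893 to 0.953). This sum was dominated by a few models alone, and without the 3 with the most fragments it was 1.12 (1.06 to 1.18). It was also above 1 under other scalings, at 1.02 (0.987 to 1.05) with equal summed FPKM. With the median difference in log2(FPKM + 1) of expressed genes set to 0 it was 1.06 (1.03 to 1.10). As deposited that median was -0.18, and those scalings moved it by 0.12 and 0.18. They multiply the values at 38 by 1.10 and 1.15, which would bring the 0.845 of models alone closer to 1. The ratio of models alone was not computed under them, so its direction holds for the deposited scaling only.

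**Figure D2:**
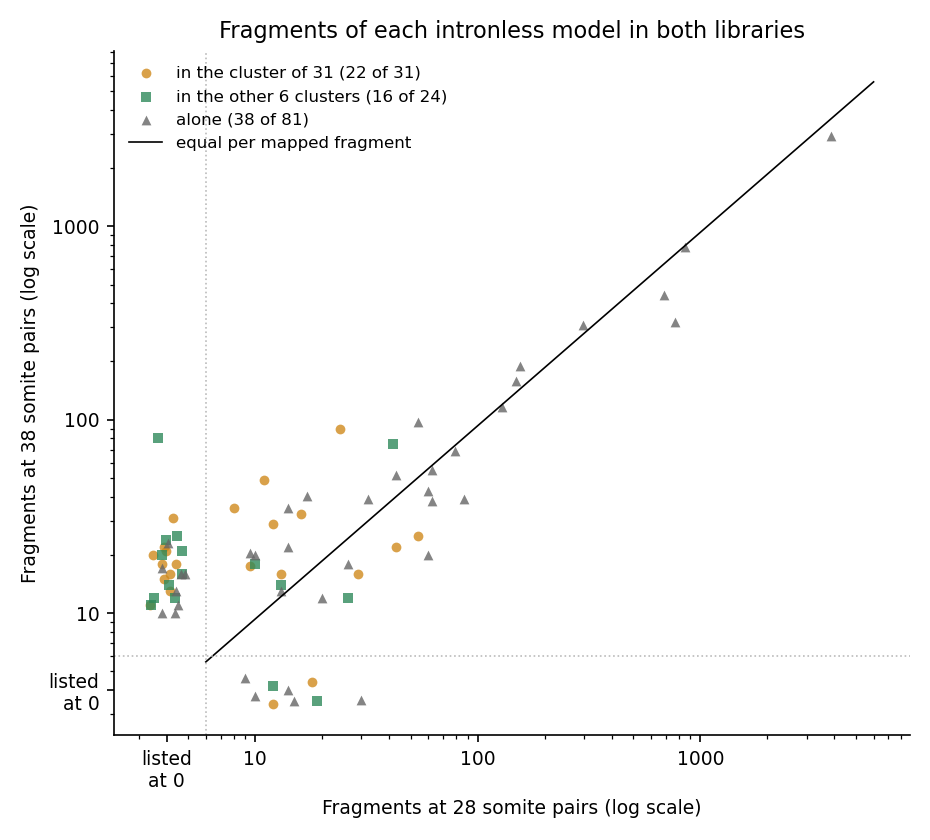
Each point is an intronless model listed above 0 in at least 1 library, by its fragments at 38 somite pairs (vertical) and at 28 (horizontal), on log scales, with models listed at 0 in a library in a jittered strip beyond the dotted lines. The points left of the vertical dotted line are the 28 models listed at 38 only, 20 of them in clusters, and the 9 below the horizontal dotted line are those listed at 28 only.

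In the cluster of 31 models on GL343253.1, 20 were listed at 38 somite pairs and 12 at 28. Both libraries listed 10, 38 only another 10, 28 only 2, and neither listed 9. Together they had 517 fragments at 38 and 249 at 28, a ratio of 2.22 (1.91 to 2.60). With 9 fragments for each model at 0 at 28 and none added at 38, the ratio was 1.32 (1.16 to 1.504). With 9 for each 0 in both libraries it was 1.57 (1.39 to 1.78), and over the 10 models listed in both it was 1.62 (1.36 to 1.93).

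Members of this cluster differed from each other in direction. The model with the most fragments, ENSACAG00000010940 (967592 to 968545), had 12.3 FPKM from 90 fragments at 38 somite pairs and 3.07 FPKM from 24 fragments at 28, a ratio of 4.03 (2.54 to 6.61). A model at 575896 to 576867 had 49 fragments at 38 and 11 at 28, a ratio of 4.78 (2.45 to 10.2), and one at 663313 to 664281 had 29 and 12, a ratio of 2.59 (1.28 to 5.58). The model at 1048500 to 1049429 had 35.0 and 7.99 fragments, a ratio of 4.70 (2.14 to 11.7). Its 7.99 lies below 10, where listed values were rare. Another, at 1075554 to 1076525, had 32.5 and 16.0, a ratio of 2.18 (1.14 to 4.19). Counting error does not cover reads shared between loci, but beyond counting error all of these were higher at 38. The opposite held for a model at 586000 to 586953, with 25 fragments at 38 and 54 at 28, a ratio of 0.497 (0.296 to 0.813). It also held for the last model of the cluster (1104105 to 1105037), with 22 fragments at 38 and 43 at 28, a ratio of 0.549 (0.313 to 0.939). The first of these was the next member after the model with 49 and 11 fragments, so direct neighbours differed in direction.

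Among models listed at 38 somite pairs only, those of this cluster with at least 20 fragments were at 1027497 to 1028483 with 31, at 906794 to 907735 with 22, at 726033 to 726983 with 21 and at 734235 to 735179 with 20. The 4 ranged from 2.33 to 3.73 FPKM at 38 and were listed at 0 at 28. At 28 only, the models at 961360 to 962295 and 821724 to 822665 had 18 and 12 fragments. Towards the end of the cluster, the models at 1069851 and 1075554 had fragment numbers at 38 that were not whole within 0.02, 17.5 and 32.5. At 28 this held for the first, with 9.50, while the second had 16.0, whole within 0.02. Fractions can come from reads that the authors' tools shared between loci, and similar neighbouring copies make values of single models uncertain. Without the models at 1069851 and 1075554 the ratio of the cluster, over the other 29, was 2.24 (1.90 to 2.64).

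Inside the span of this cluster lay 13 other models. Of these, 8 had 900 to 1000 bases but introns or a length not divisible by 3, and spanned at most 3000 bases. They had 155 fragments at 38 somite pairs, with 5 listed, and 13 at 28, with 1 listed. The remaining 5 had at most 3.85 FPKM at 38 and 0.42 at 28. Among models within 50 kb outside the cluster, the most abundant was a spliced model of 1449 bases (499069 to 512404), 38.7 kb before the first member, with 165.2 FPKM at 38 and 48.2 at 28. Its part in the values of the cluster was not tested. With compact models with introns included, the cluster grew to 41 models (468893 to 1122933) with a ratio of 2.17 (1.90 to 2.48).

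In the cluster of 8 models on chromosome 1, 6 were listed at 38 somite pairs and 1 at 28. The 6 had 11 to 25 fragments and 1.41 to 3.15 FPKM at 38. The one listed at 28 was the model at 92415357 to 92416325, with 18 fragments at 38 and 10 at 28. The sums were 114 fragments at 38 and 10 at 28, a ratio of 12.2 (6.42 to 26.2). Because 7 zeros at 28 could each hide up to 9 fragments, the ratio could be as low as 1.68 (1.24 to 2.28) with 9 fragments in each. The models at 92320553, 92493154 and 92431748 had 25, 24 and 20 fragments at 38 and were listed at 0 at 28. A model of 948 bases that starts 6.37 kb after the cluster had 2.68 FPKM at 38 and 1.89 at 28. With compact models with introns included, the cluster had 9 models and 138 fragments at 38, against 28 at 28, and the ratio was 5.29 (3.51 to 8.25). Another model of similar size lay inside the span of the cluster, with 40 fragments at 38 and 20 at 28. Its length was not divisible by 3, so it was not among these 9. Its 20 fragments at 28 exceeded the 10 of the 8 members together.

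On GL343220.1 the interval of the cluster of 7 held 1. Of its models, 3 were listed at 38 somite pairs and 2 at 28, with 45 and 38 fragments, a ratio of 1.27 (0.807 to 2.01). The model at 922414 to 923334 was listed in both, with 12 fragments at 38 and 26 at 28. One at 953788 to 954738 had 21 fragments at 38 and was listed at 0 at 28. With compact models with introns the cluster had 9 models and 62 fragments at 38, against 38 at 28, and the ratio of 1.75 (1.15 to 2.70) no longer had an interval that held 1.

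The smaller clusters held few listed models. Further along GL343220.1, ENSACAG00000007810 (1627629 to 1628591) had 8.15 FPKM from 80 fragments at 38 somite pairs and was listed at 0 at 28. Its partner, 7.88 kb away, was listed at 0 in both libraries. With 9 fragments at 28 for both models of the pair and none added at 38, the ratio was 4.77 (2.84 to 8.46). A single-exon model of 1002 bases within 50 kb of the pair (1604615 to 1605616) fell just outside the window. It had 57 fragments at 38 and 46 at 28 and does not enter this ratio. On GL343252.1, the model at 213816 to 214766 had 75 fragments at 38 and 41.5 at 28, a ratio of 1.94 (1.32 to 2.95), and its partner had 14 fragments at 38 only. The pair had a ratio of 2.30 (1.59 to 3.46), and one of 1.90 (1.38 to 2.71) with compact models with introns. The cluster of 3 on GL343253.1 (344362 to 371684) had 26 fragments at 38 and 13 at 28. The pair on chromosome 1 (91326205 to 91344996) went the other way, with 0 listed at 38 and 19 fragments in 1 model at 28. Across the 7 clusters, the sum of fragments per mapped fragment was thus larger at 38 in 6, the cluster of 7 within counting error, and larger at 28 in 1. With 9 fragments for each 0 at 28 only, the ratio fell below 1 in the cluster of 7, at 0.582 (0.396 to 0.847), and in the cluster of 3, at 0.9005 (0.514 to 1.57).

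**Figure D3:**
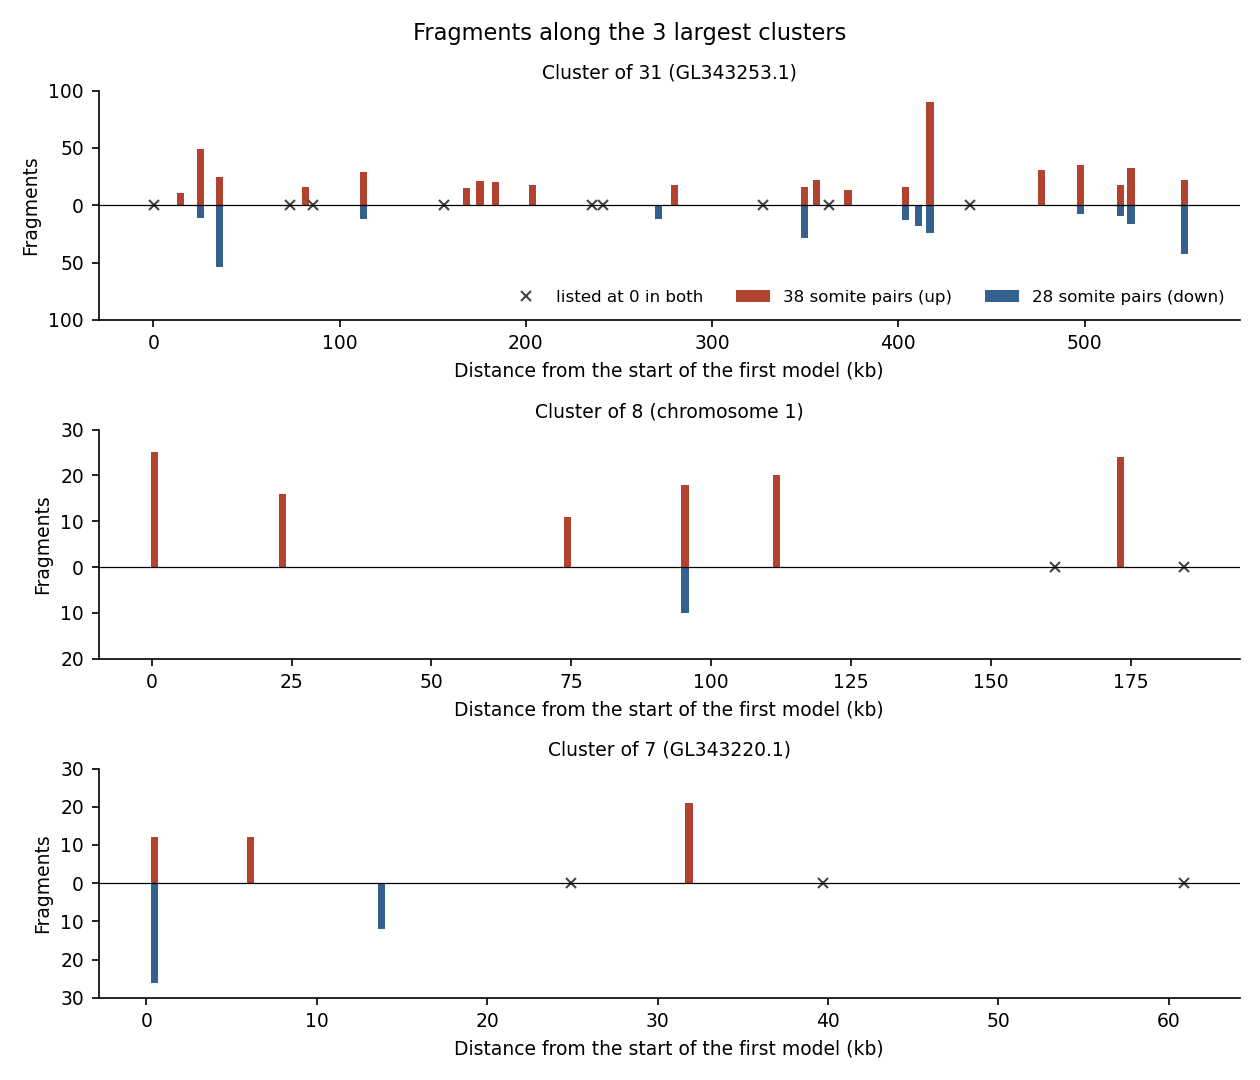
Bars give the fragments of each model along the 3 largest clusters, upward at 38 somite pairs and downward at 28, by distance from the start of the first model in kb, and crosses mark models listed at 0 in both libraries. In the cluster of 8, bars of 11 to 25 fragments point up in 6 places and a single bar of 10 points down.

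The abundant models all stood alone. Only 8 of the 136 reached 100 fragments in a library, the same 8 in both. The first, on chromosome 1 (23949067 to 23950008), had 206.0 FPKM from 2939 fragments at 38 somite pairs and 256.9 FPKM from 3855 at 28, a ratio of 0.819 (0.780 to 0.859). It alone held 42.7% of the fragments of all intronless models at 38 and 48.2% at 28. A model on chromosome 2 (117453808 to 117454806) had 784 and 852 fragments, a ratio of 0.988 (0.895 to 1.09). On chromosome 4 (77876878 to 77877810), 441 fragments lay at 38 and 686 at 28, a ratio of 0.690 (0.611 to 0.779). The largest difference among these 8 was on chromosome 6, where ENSACAG00000011889 (78757250 to 78758188) had 41.5 FPKM from 320 fragments at 38 and 93.5 FPKM from 770 at 28, a ratio of 0.446 (0.390 to 0.509). The next models were closer to 1. On scaffold GL343405.1 (120892 to 121827) the ratio was 1.12 (0.953 to 1.32), on chromosome 1 (124150447 to 124151406) it was 1.31 (1.05 to 1.63), on chromosome 4 (101941554 to 101942495) 1.15 (0.916 to 1.45) and on chromosome 5 (25842261 to 25843187) 0.981 (0.757 to 1.27).

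Among less abundant models alone, differences went both ways. A model on chromosome 4 (26276080 to 26276994) had 97 fragments at 38, against 54 at 28, a ratio of 1.93 (1.37 to 2.74). Models on chromosome 1 (212063728 to 212064681) and chromosome 3 (117861737 to 117862672) had ratios of 2.68 (1.41 to 5.40) and 2.53 (1.40 to 4.75), from 35 and 40.2 fragments at 38 and 14 and 17.0 at 28. On chromosome 4, ENSACAG00000002660 (119865302 to 119866294) had 1.56 FPKM from 20 fragments at 38 and 4.45 FPKM from 60 at 28, a ratio of 0.358 (0.204 to 0.602). A model on GL343201.1 (3760700 to 3761605) had 39 and 87 fragments, a ratio of 0.481 (0.321 to 0.710). For models on chromosome 2 (14206745), GL343219.1 (1054807), chromosome 1 (85458872), chromosome 5 (138346599), GL343839.1 (41320) and chromosome 3 (96689658), ratios of 0.658 to 1.31 had intervals that held 1. Listed in a single library with at least 20 fragments were a model on chromosome 3 (139533568 to 139534482), with 23 at 38, and one on GL343760.1 (139140 to 140108), with 30 at 28.

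Of the 39 models listed in both libraries, the counting interval lay above 1 for 11 and below 1 for 7. Among all such loci, 17.0% lay above 1 and 39.2% below. In clusters 6 of 14 lay above and 2 below, and among models alone 5 of 25 lay above and 5 below. The median ratio was 1.94 over the 14 in clusters, 0.988 over the 25 alone and 1.15 over all 39. In log2(FPKM + 1), which shrinks differences at low FPKM, the median differences, 38 minus 28, were 0.58, -0.02 and 0.16. Over the 10255 genes listed in both libraries the median difference on that scale was -0.16. Models that are listed in both libraries are the better covered ones, so these counts leave out those whose listing changed.

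A property not used in the choice also differed between the models in clusters and those alone. The deposited effective length, by which fragments are divided to give FPKM, was shorter than the annotated length by more in the clusters. Its ratio to the annotated length had a median of 0.645 at 38 somite pairs (range 0.586 to 0.734, 30 models) and 0.639 at 28 (0.587 to 0.733, 26 models) in the cluster of 31. In the other clusters the median was 0.691 at 38 and 0.694 at 28, and among models alone 0.860 (0.584 to 1.17, 61 models) and 0.840 (0.587 to 1.15, 51 models). A ratio below 0.75 was found at 38 for 50 of 53 models in clusters and for 14 of 61 alone. It was also found for 30 of 70 compact models with introns, some of which lie in or beside the clusters. Among spliced models of 900 to 1000 bases with a longer span it was found for 13 of 594. Clustered models listed at 0 in both libraries had the same low ratio at 38, with a median of 0.684 over 15, against 0.662 over 38 listed in either, so listed and unlisted models of the clusters lay close together. How the effective length was computed is not given in the sources used here.

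This affects how FPKM compare between models. At 38 somite pairs, 10 fragments equal 1.22 FPKM in the median clustered model and 0.952 in the median model alone. At 28 they equal 1.16 and 0.899 FPKM. Comparisons of 1 model between libraries are hardly touched, since its effective lengths in the libraries differed by at most 5.64% (median 0.509%) over 94 models. Models with an effective length equal to the annotated length were left out of these figures. They were 22 of the 69 models at 0 at 38 and 38 of the 88 at 0 at 28, and none of the listed ones. Over all loci with 1 gene, this equality was seen in 4479 of 8229 at 0 and in 0 of 9871 above 0 at 38, and in 5090 of 8361 and 1 of 9739 at 28.

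**Figure D4:**
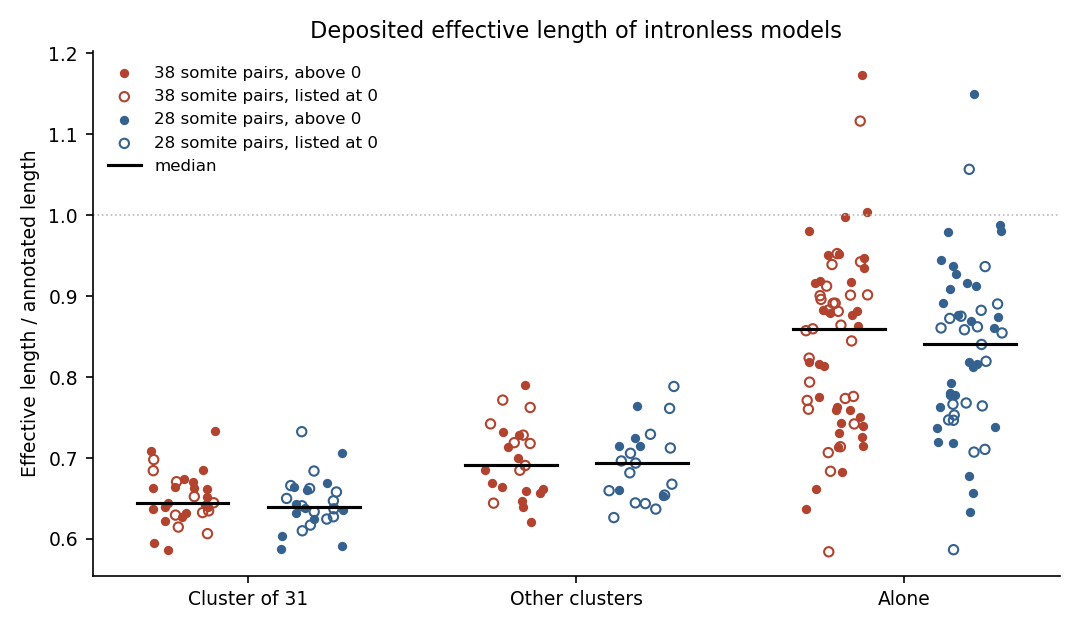
Points give the deposited effective length divided by the annotated length for each intronless model, at 38 and at 28 somite pairs, filled where the model is listed above 0 and open where it is listed at 0, with bars at the medians. The cluster of 31 lies between 0.586 and 0.734 in both libraries, below the medians of models alone at 0.860 and 0.840.

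A library-wide value also differed between the libraries. Of the mapped fragments, 56.6% lay outside the listed transcripts at 38 somite pairs, against 47.9% at 28, and in a single-exon model no read crosses an intron, so mature and unspliced RNA cannot be told apart there. The part of this in the values of the intronless models was not tested.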

How the data were processed

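Total RNA of 2 whole embryos was sequenced, 1 library per stage. The NuGEN Ovation kit was used, per the labels' protocols. TopHat placed the untrimmed reads on AnoCar2.0, per the series design text, and the submitters' processing notes also list Cufflinks. For both, the version is not given in the sources used here. The deposited values are FPKM for 21085 genes and 22232 transcripts, per the file headers. The deposited fraction of a locus and the coverage signal, per the file headers, entered no comparison.

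Fragments were recovered as FPKM times effective length, which fell within 0.02 of whole multiples of a library step for 92.6% of 5071 loci under 100 fragments at 38 somite pairs and 93.1% of 4575 at 28. The step gave the mapped totals on the assumption that every mapped fragment entered the authors' scaling. Intervals are exact 95% Clopper-Pearson intervals of fragments rounded down and cover counting error only. Positions are 1-based. The steps were tested on simulated data. The rule for the members used annotation only, but this rule, the lists and the tests were chosen with earlier results of these data known. Named models are those of clusters of 5 or more, the 25 with the most fragments, and those listed in 1 library with at least 20. Smaller clusters and other single models were named after their values were seen. Identifiers are limited to 2 per direction, since the files pair none with a name. No sequence is printed, since no genome of this build was used here. Tools were scipy 1.17.1, pandas 2.3.3, numpy 2.4.6 and matplotlib 3.10.9 under Python 3.11.15.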

Additional observations from a re-analysis of the deposited data

Results flagged for a closer look

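A signal lies in data that no comparison of the intronless models used. Of the mapped fragments, 56.6% lay outside the listed transcripts at 38 somite pairs, against 47.9% at 28, and where they lay was not analysed here. With 1 library per stage, no sample was set against others of its group.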

How the results depend on the processing

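No paired analysis was possible because there was 1 library per stage. Of 55 alternatives to the main counts and the summed ratio, 23 stayed within 1.5 times the count or within the counting interval. Counts in other length windows or with compact models come from sets of another size, 222 models with the compact ones. As raw counts they therefore shift with the size of the set. For other shifts given without a cause, the cause was not tested. Values are given at 38 and then at 28 somite pairs. Models listed above 0 numbered 43 and 27 at lengths of 930 to 960 bases (69 models), 73 at 28 in a window 50 bases wider on each side (209 models), 106 and 75 with compact models with introns, 40 and 26 with at least 20 fragments, and 18 and 18 with a lower deposited bound above 0. Models higher by 2-fold numbered 2 and 1 with a pseudocount of 5 FPKM, 4 and 2 above 0 in both libraries, 1 and 1 with deposited intervals apart, and 8 and 2 with each 0 set to 9 fragments. Those higher at 28 numbered 4 and 14 in the narrower and wider windows. The summed ratio was 0.880 at 930 to 960 bases, 0.840 with 9 fragments for zeros at 28 only, 0.866 over models above 0 in both, 0.881 without the cluster of 31 and 0.845 for models alone. It changed sides of 1 with equal summed FPKM (1.02), the median difference set to 0 (1.06), without the 3 models with the most fragments (1.12), and for clusters of 5 or more (2.44) or 2 or more (2.52). Clusters, lone models counted as 1 each, numbered 88, and 43, 156 and 154 in the narrower and wider windows and with compact models with introns. Leaving out 1 model of the cluster of 8 left none at 28, so no ratio was computed, and without its first model the cluster of 7 stood at 2.95 (1.49 to 6.28). Alternatives with compact models, at least 20 fragments, without fractional numbers, for clusters of 2 or more together and for single clusters were added after the data were seen. With compact models with introns the cluster of 8 stood at 5.29 and that of 7 at 1.75. Depth limits these models, since 27 of 67 listed models at 38 and 22 of 48 at 28 had fewer than 20 fragments. Across the annotation, listed values below 10 fragments were rare.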
